A study of Danio rerio with 6 samples.

Results

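The genes described here encode proteins that carry out or regulate the splicing of pre-mRNA. They were chosen by symbol: rsrp1, and every gene whose symbol starts with srsf, hnrnp, hnrp, sf3a, sf3b, snrp, u2af, prpf, or clk followed by a digit. The rule found 84 of the 32057 genes in the deposited table, made up of 17 SR protein genes, rsrp1, 4 CLK kinase genes, 25 hnRNP genes, 3 U2AF genes, 3 SF3A genes, 6 SF3B genes, 12 genes of Sm and U snRNP proteins and 13 PRPF genes. They lie on 23 chromosomes. The symbols srsf3a and hnrnpa0l each stand on a pair of rows.

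Splicing removes introns in the spliceosome, which is built from small nuclear RNAs bound by Sm proteins and by particle-specific proteins such as the SF3A and SF3B subunits. SR proteins carry domains rich in arginine and serine, bind exons and favour their inclusion, while many hnRNPs bind introns or exons and oppose it. The CLK kinases phosphorylate SR proteins in the nucleus. In mammals, many SR protein and CLK transcripts have forms with a retained intron or an exon that carries a stop codon, and SR proteins control their own levels through such forms. The clk genes here are CDC-like kinases and not the circadian clock gene.

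The libraries were made from poly(A) RNA of heads taken from zebrafish embryos 2 days post-fertilization (dpf). In the 6PPD group, embryos had been kept from 10 hours post-fertilization (hpf) in 500 µg/L 6PPD, an antioxidant of tire rubber, and in the DMSO group they had been kept in the solvent. Each group held 3 libraries, which the labels call biological replicates, and each library pooled 150 heads. PTU, which blocks pigment formation, was given to both groups (0.003%) from 24 hpf on, and strain and genotype are not given in the sources used here.

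The values are FPKM, fragments scaled by gene length and by library, and the read depth behind them is unknown. The labels name the tissue as brain, but whole heads were taken. Summed over lists of marker genes, markers of brain neurons reached 1383 to 1451 FPKM in 6PPD libraries and 1307 to 1376 FPKM in DMSO libraries, and markers of epidermis 3765 to 4678 FPKM in 6PPD libraries and 4458 to 7829 FPKM in DMSO libraries. Markers of retina, lens, cranial muscle and erythrocytes were also present, and no listed marker found in the data was at 0 in all libraries. The lens marker crygm2a was at 0 in every library but DMSO replicate 2, where it had 0.0155 FPKM. Of 6 lens markers listed 5 were found, and of 9 neural progenitor markers 8. DMSO replicate 3 stood apart from the other controls: its FPKM summed to 434258 and it had 24379 genes above 0, against sums of 472121 and 458779 and 23653 and 23898 genes in DMSO replicates 1 and 2. The 6PPD libraries summed to between 434484 and 442665 FPKM, with 24139 to 24380 genes above 0. In such pooled heads, a change in the number of cells of a type and a change in RNA per cell cannot be told apart.

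All 84 splicing genes averaged 1 FPKM or more over the 6 libraries, the level required for testing, and their levels were high, with a median over genes of 69.3 FPKM against 6.62 FPKM for the 15320 genes tested. In heads of 6PPD embryos, rsrp1 and clk4a rose and hnrnpdl fell, and no other member passed the threshold of an adjusted p under 0.05 (limma on log2(FPKM + 1), Benjamini-Hochberg over all genes tested). These 3 are 3.57% of the members, near the 3.41% called among all genes tested. By direction, 2.38% of members were called higher (2.26% of all genes tested) and 1.19% lower (1.15% of all genes tested). The ranges of the groups were separate in 22 members, which is 26.2% beside 26.3% of all genes tested. Of these, 14 were higher in 6PPD (16.7%, beside 17.1% of all genes tested) and 8 lower (9.52%, beside 9.18%). At an unadjusted p under 0.05 stood 15 members by limma (17.9%, beside 20.3% of all genes tested). The share that differed was close to the background by these 3 measures, but the signs were not: 35 of 84 members (41.7%) had a positive log2 fold change, beside 61.5% of all genes tested, with medians of -0.04 over the members and 0.06 over all genes tested. The median over genes depended on level, and the members are highly expressed. With a filter at 5 FPKM the median of all genes tested was 0.04. Other genes tested within a family's range of level had medians of -0.02 (SF3B), -0.01 (U2AF) and -0.01 (Sm and U snRNP proteins). For the remaining families but rsrp1 these medians were 0.02 to 0.06. The part of level in the signs was not tested. The shares called depended on the libraries. Without DMSO replicate 3, 5.95% of members and 7.4% of all genes tested were called, and without DMSO replicate 2, 1.19% of members and 1.09% of all genes tested. Leaving out a 6PPD library gave 1.19% to 2.38% of members and 1.11% to 1.37% of all genes tested.

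**Figure D1:**
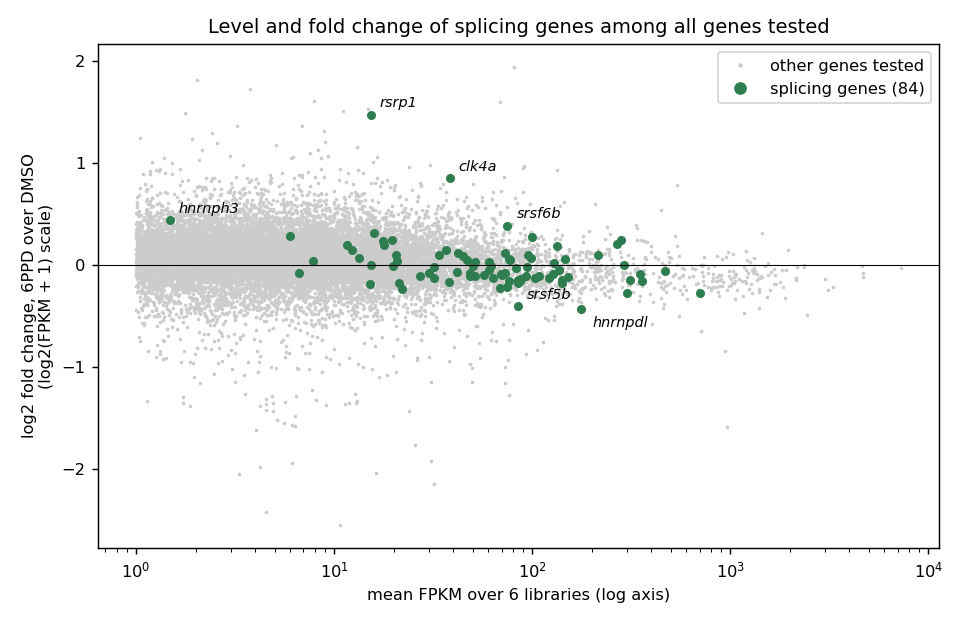
Mean FPKM over the 6 libraries (log axis) against the log2 fold change of 6PPD over DMSO for the 84 splicing genes (green) and the other genes tested (grey). Most splicing genes sit at high levels within the cloud around 0, and rsrp1 (1.47) and clk4a (0.85) lie above it.

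The largest change was in rsrp1 (ENSDARG00000030440, chromosome 13, 45468403 to 45475289, minus strand, GRCz11), which encodes a protein rich in arginine and serine. It had 23.0, 30.2 and 15.9 FPKM in 6PPD replicates 1 to 3, against 8.04, 5.52 and 9.07 FPKM in DMSO replicates 1 to 3. Every 6PPD library lay above every DMSO library, and the 6PPD libraries differed among themselves by more than the DMSO libraries did. The mean was 23.0 ± 7.14 FPKM in 6PPD and 7.54 ± 1.82 FPKM in DMSO (SD, n = 3 each), a ratio of 3.05. The log2 fold change was 1.47 ± 0.22 (SE), with limma adjusted p = 0.00947. It was called in each of the 6 fits that left out 1 library, with log2 fold changes of 1.26 to 1.70.

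Among the kinases that phosphorylate SR proteins, clk4a rose and its 3 relatives were not called. The gene clk4a (ENSDARG00000089372, chromosome 14, 6933400 to 6943934, minus strand) had 51.4, 58.3 and 38.6 FPKM in 6PPD replicates 1 to 3, against 25.3, 21.6 and 34.5 FPKM in DMSO replicates 1 to 3. All 6PPD values were above all DMSO values, by a narrow margin between 6PPD replicate 3 and DMSO replicate 3. The log2 fold change was 0.85 ± 0.18 (SE), with limma adjusted p = 0.0377. The call was lost without 6PPD replicate 1 (0.81, limma adjusted p = 0.124), without 6PPD replicate 2 (0.72, 0.122), without DMSO replicate 1 (0.81, 0.0861) and without DMSO replicate 2 (0.70, 0.134), as well as with no filter on low values (0.85, 0.159) and without an intensity trend (0.85, 0.0704), and it held without 6PPD replicate 3 (1.01, 0.034) and without DMSO replicate 3 (1.03, 0.0179).

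The second clk4 gene, clk4b, had 11.5, 18.4 and 11.5 FPKM in 6PPD libraries and 11.1, 12.3 and 15.4 FPKM in DMSO libraries. Its groups overlapped, and its log2 fold change of 0.07 had a 95% interval of -0.34 to 0.47 and turned to -0.01 after median-ratio scaling. The gene clk2a had 31.0, 25.9 and 20.7 FPKM in 6PPD libraries and 22.6, 25.2 and 36.5 FPKM in DMSO libraries (log2 fold change -0.10, interval -0.51 to 0.30, and 0.09 without DMSO replicate 3). The gene clk2b had 13.1, 14.2 and 11.7 FPKM in 6PPD libraries and 11, 11.4 and 12.5 FPKM in DMSO libraries (log2 fold change 0.15, interval -0.08 to 0.37). Of the 4 kinase genes, clk4a had the highest level in 6PPD heads, and in DMSO heads its mean of 27.1 ± 6.62 FPKM lay within the spread of clk2a, at 28.1 ± 7.4 FPKM.

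**Figure D2:**
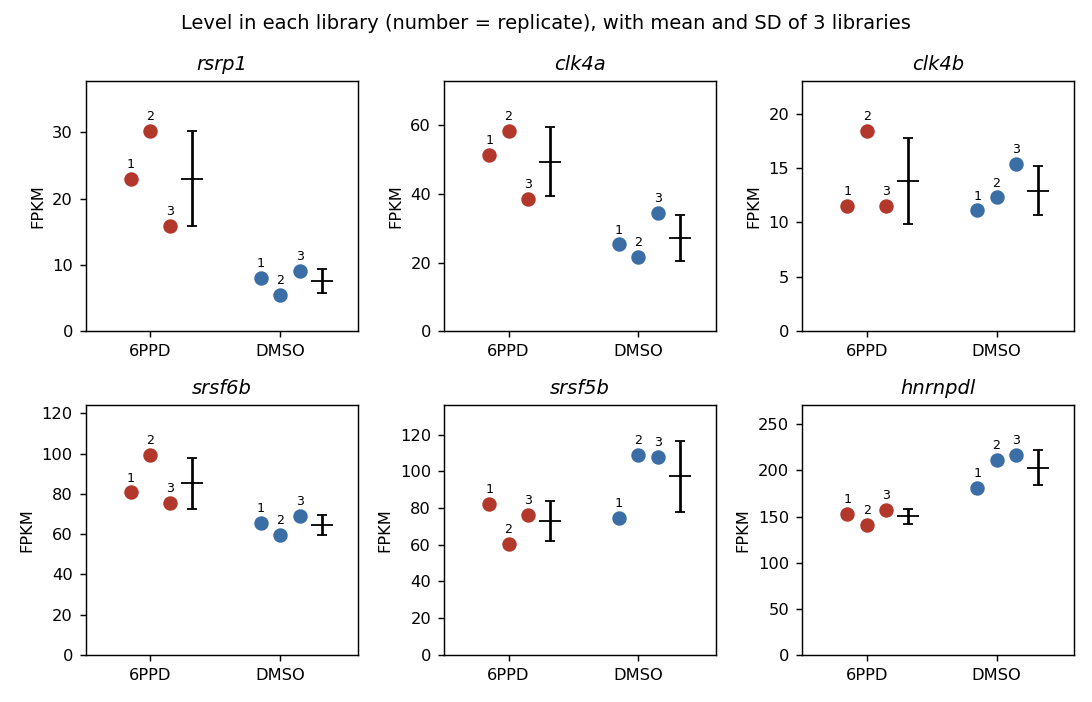
FPKM of 6 splicing genes in each library (points, numbered by replicate) with the mean and SD of 3 libraries (bars), 6PPD left of DMSO in each panel. The groups are separate in rsrp1, clk4a, srsf6b and hnrnpdl and overlap in clk4b and srsf5b.

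No SR protein gene was called by limma, and 4 were higher and 1 lower at an unadjusted p under 0.05. Over all 15320 genes tested, 2052 were higher and 1061 lower at that level. Of the 17 rows, 11 had a positive log2 fold change, and the median was 0.06, the same as the median of all genes tested (0.06). This family median was -0.02 after median-ratio scaling and -0.03 without DMSO replicate 3. The gene srsf6b (chromosome 11, 1522127 to 1530865, plus strand) had the smallest p of the family. It measured 80.7, 99.4 and 75.3 FPKM in 6PPD libraries, against 65.6, 59.4 and 69.0 FPKM in DMSO libraries. The groups did not overlap, and the log2 fold change of 0.39 ± 0.11 (SE) did not pass (limma adjusted p = 0.0953).

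The order of the libraries was the same in rsrp1, clk4a and srsf6b. In each of these genes 6PPD replicate 2 was the highest and 6PPD replicate 3 the lowest of its group, and DMSO replicate 3 was the highest and DMSO replicate 2 the lowest among the controls. Of the 15 members with an unadjusted p under 0.05, no other member had this order in both groups. Outside these 15 it was not particular to genes that differed. The member prpf4ba had the same order, with 8.11, 8.34 and 7.24 FPKM in 6PPD libraries and 8.52, 6.02 and 8.62 FPKM in DMSO libraries. Its log2 fold change was 0.04. The SR-related gene luc7l, outside the rule, had it too. The genes rsrp1, clk4a and srsf6b were picked out after their values were seen.

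At the other end of the SR family stood srsf5b (chromosome 20, 28869969 to 28884829, minus strand). It had 82.1, 60.6 and 76.1 FPKM in 6PPD libraries, against 74.7, 109 and 108 FPKM in DMSO libraries. DMSO replicate 1 lay among the 6PPD libraries, so the groups overlapped, and the log2 fold change of -0.40 ± 0.16 (SE) did not pass (limma adjusted p = 0.194). Without DMSO replicate 1 the gene was called lower, at -0.58 with limma adjusted p = 0.0492 (0.0492 to 0.46 over the 18 other settings). Its relative srsf5a had 104, 81.7 and 83.9 FPKM in 6PPD libraries and 90.6, 102 and 97.6 FPKM in DMSO libraries, with overlapping groups.

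The other SR protein genes outside the threshold whose groups did not overlap were srsf1b, srsf2b and srsf11, all higher in 6PPD, and srsf2a, lower. With srsf6b, 4 of the 17 were separate with 6PPD higher and 1 with 6PPD lower, beside 17.1% and 9.18% of all genes tested. The gene srsf1b encodes a form of the founding SR protein SF2/ASF and had 17.9, 16.6 and 18.5 FPKM in 6PPD libraries, against 15.3, 12.9 and 14.0 FPKM in DMSO libraries (log2 fold change 0.31, limma adjusted p = 0.109). The second form, srsf1a, is far more abundant, and had 126, 132 and 132 FPKM in 6PPD libraries and 132, 140 and 113 FPKM in DMSO libraries. The gene srsf11 had 107, 114 and 108 FPKM in 6PPD libraries, against 102, 82.2 and 88.6 FPKM in DMSO libraries (log2 fold change 0.27, limma adjusted p = 0.143). Part of its span lies over the gene trappc10 on the opposite strand, and strand use in the counts was not given in the sources used here. The highest SR protein gene was srsf3b, at 221 ± 7.37 FPKM in 6PPD and 208 ± 21.0 FPKM in DMSO (SD, n = 3 each), and the lowest was srsf7b, at 6.68 ± 2.06 FPKM in 6PPD and 5.28 ± 1.5 FPKM in DMSO. The span of srsf7b overlaps the gene gnb4b (mean 5.5 FPKM) by 6529 bases on the same strand, so fragments there may be divided between them. The 2 rows of srsf3a overlap on the same strand of chromosome 6 and kept a ratio of 1.59 to 1.65 to each other in every library, so they may share fragments and are not independent members.

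The hnRNP genes were the most abundant group, led by hnrnpa0l on chromosome 14. Its level was 636 ± 29.1 FPKM in 6PPD and 769 ± 50.8 FPKM in DMSO (SD, n = 3 each), above 99.2% of the genes tested. Of the 25 hnRNP genes 1 fell and none rose by limma, where 1.15% of all genes tested fell and 2.26% rose. At an unadjusted p under 0.05, 2 hnRNP genes were higher and 2 lower, beside 20.3% of all genes tested in either direction. The family median was -0.01 (0.04 with values turned into TPM, -0.09 after median-ratio scaling). The gene that fell was hnrnpdl (ENSDARG00000003429, chromosome 10, 5017216 to 5024520, minus strand), which encodes an RNA-binding relative of hnRNP D. It had 153, 141 and 157 FPKM in 6PPD libraries, against 181, 211 and 217 FPKM in DMSO libraries. The groups were separate, with a log2 fold change of -0.43 ± 0.09 (SE) and limma adjusted p = 0.0414.

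That call was near the threshold. It was lost after rescaling to TPM (-0.38, limma adjusted p = 0.0862), after quantile normalization (-0.37, 0.0817), after cyclic loess (-0.38, 0.0809), without an intensity trend (-0.43, 0.0843) and with low genes kept in (-0.43, 0.122). It was also lost without 6PPD replicate 1, 2 or 3 and without DMSO replicate 2, where the log2 fold change was -0.46 to -0.38 and the adjusted p 0.106 to 0.152. The spans of hnrnpdl and of its neighbour hnrnpd overlap by 3163 bases on the same strand, so fragments there may be divided between them. The gene hnrnpd had 40.3, 42.9 and 39.3 FPKM in 6PPD libraries and 38.6, 47.4 and 42.8 FPKM in DMSO libraries, with overlapping groups.

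The hnRNP A0-like gene hnrnpa0l on chromosome 14 (38849432 to 38850933, plus strand) had 621, 617 and 670 FPKM in 6PPD libraries, against 789, 806 and 711 FPKM in DMSO libraries. The groups did not overlap, and the log2 fold change of -0.27 ± 0.10 (SE) did not pass (limma adjusted p = 0.171), while it was called without DMSO replicate 3 (-0.33, adjusted p = 0.0409, and 0.0409 to 0.441 over the 18 other settings). The gene of that symbol on chromosome 20 had only 5.46 to 7.07 FPKM in 6PPD libraries and 5.64 to 7.78 FPKM in DMSO libraries. The lowest member of all 84, hnrnph3, had 1.66, 2.1 and 1.78 FPKM in 6PPD libraries, against 0.999, 1.35 and 0.981 FPKM in DMSO libraries. Its log2 fold change of 0.43 (limma adjusted p = 0.122) is understated by the added 1 FPKM, and the ratio of its mean FPKM was 1.67. Libraries of one group differed widely in hnrnpm, with 152, 109 and 157 FPKM in 6PPD libraries and 168, 131 and 81.1 FPKM in DMSO libraries, and in hnrnpabb, where 6PPD replicate 2 alone reached 414 FPKM against 250 and 259 FPKM in the other 6PPD libraries and 234 to 268 FPKM in DMSO libraries.

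**Figure D3:**
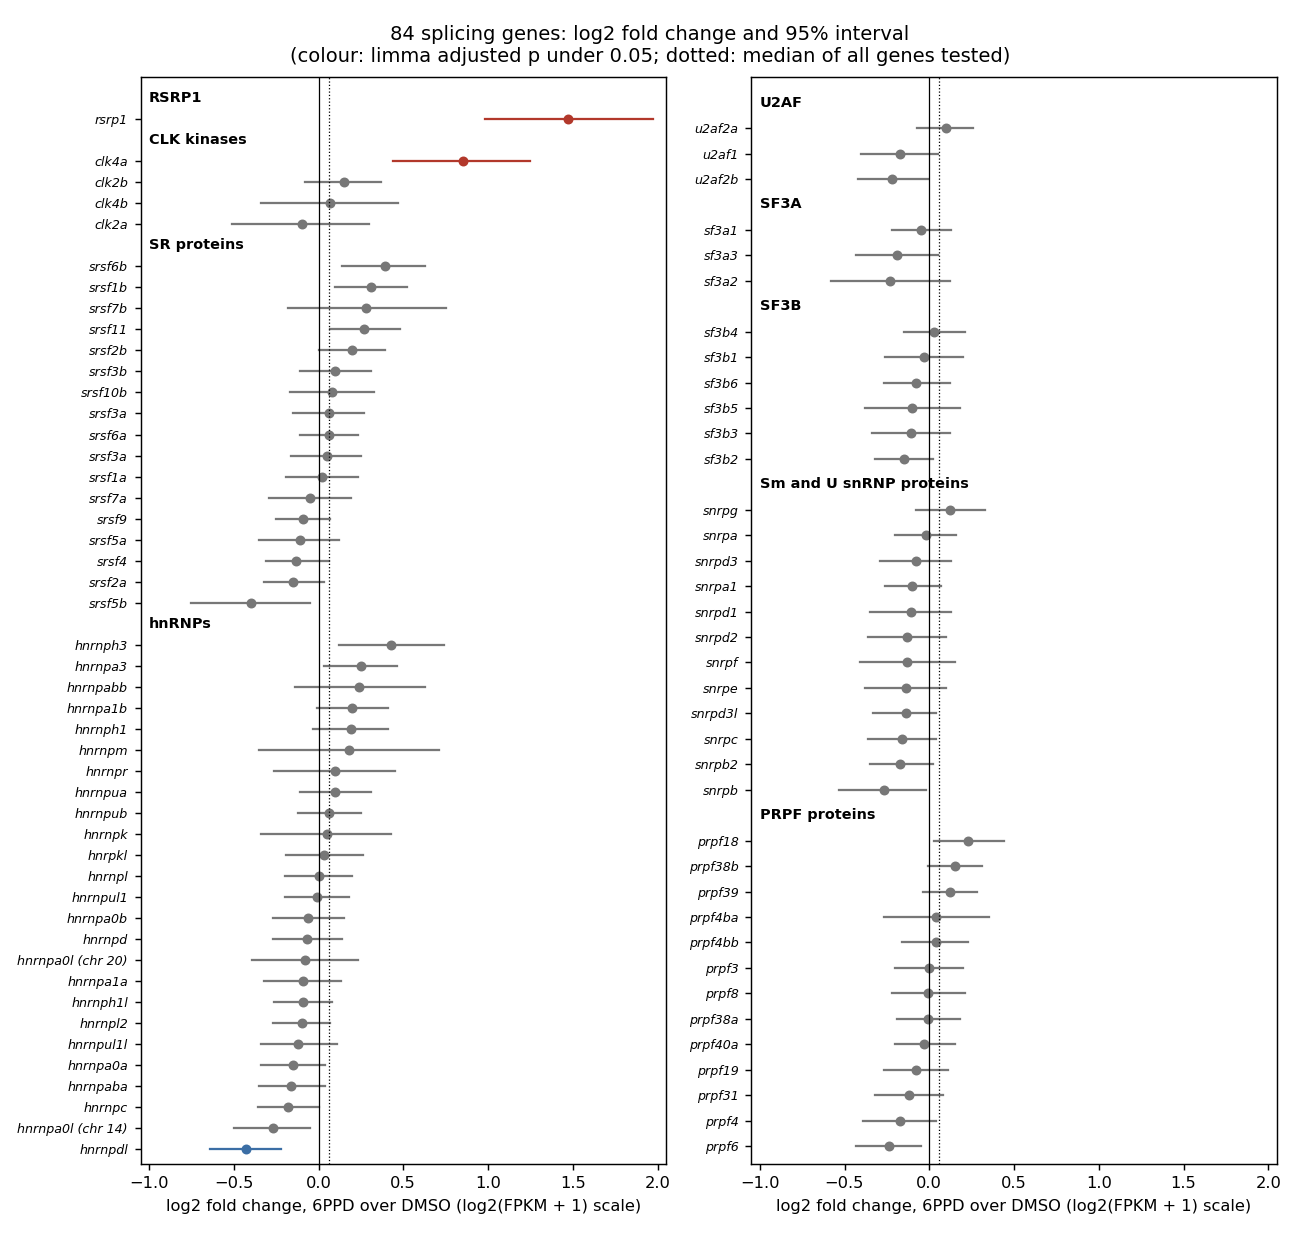
Log2 fold change of 6PPD over DMSO (points) with its 95% interval (lines) for the 84 splicing genes by family, coloured where the limma adjusted p is under 0.05, with the median of all genes tested (0.06) as a dotted line. The genes rsrp1, clk4a and hnrnpdl are the coloured ones, and 11 of the 12 genes of Sm and U snRNP proteins lie left of 0.

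Among the members of the U2AF, SF3, Sm and PRPF families no gene was called. U2AF recognises the end of the intron through a small subunit (u2af1) and a large subunit (u2af2a, u2af2b). The gene u2af2b had 65.1, 65.4 and 77.4 FPKM in 6PPD libraries, against 82.7, 84 and 75.1 FPKM in DMSO libraries (log2 fold change -0.22, limma adjusted p = 0.221). The gene u2af2a had 34.4, 35.4 and 35.7 FPKM in 6PPD libraries, against 33.8, 33.3 and 31.3 FPKM in DMSO libraries (0.10, limma adjusted p = 0.481). The gene u2af1 averaged 133 ± 5.46 FPKM in 6PPD and 151 ± 18.5 FPKM in DMSO (SD, n = 3 each).

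SF3A and SF3B are parts of the U2 particle that holds the branch point. None of the 3 SF3A and 6 SF3B genes was called by limma (3.41% of all genes tested). None had an unadjusted p under 0.05 (20.3% of all genes tested). The SF3A median was -0.19 and the SF3B median -0.09, and both stayed below 0 in the 18 other settings, at -0.27 to -0.09 and -0.17 to -0.04. The gene sf3b1, which encodes the largest SF3B subunit, had 82.1, 77.0 and 85.4 FPKM in 6PPD libraries and 79.7, 74.9 and 97.1 FPKM in DMSO libraries, with overlapping groups. The gene sf3b2 was the only member of these 9 whose groups did not overlap, with 69.1, 71.9 and 75.5 FPKM in 6PPD libraries, against 83.1, 82.0 and 75.8 FPKM in DMSO libraries (log2 fold change -0.15, limma adjusted p = 0.296). Groups did not overlap in 26.3% of all genes tested. The gene sf3a2 varied most, with 56.4, 76.3 and 57.4 FPKM in 6PPD libraries and 81.1, 84.5 and 58.6 FPKM in DMSO libraries. The smallest p of the SF3A genes belonged to sf3a3, with 15.9, 12.1 and 14.3 FPKM in 6PPD libraries and 16.9, 15.9 and 15.6 FPKM in DMSO libraries (log2 fold change -0.19, limma adjusted p = 0.349). The remaining SF3A gene, sf3a1, averaged 59.2 ± 1.14 FPKM in 6PPD and 61.2 ± 3.83 FPKM in DMSO, and sf3b4, the SF3B gene with the highest log2 fold change (0.03, and -0.05 after median-ratio scaling), averaged 61.5 ± 2.53 FPKM in 6PPD and 60.2 ± 4.06 FPKM in DMSO (SD, n = 3 each).

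Among the 12 genes of Sm and U snRNP proteins, 11 had a negative log2 fold change, where 61.5% of all genes tested had a positive one. None of the 12 was called by limma (3.41% of all genes tested), and 1 had an unadjusted p under 0.05 (20.3% of all genes tested). The median of the 12 was -0.13, and -0.21 to -0.06 in the 18 other settings. These genes are short (589 to 1907 bases) and highly expressed, and the 679 other genes tested that fall within both their range of length and their range of level had a median of -0.07. The lead gene was snrpb, which encodes the Sm core proteins B and B′. It had 272, 274 and 265 FPKM in 6PPD libraries, against 356, 360 and 274 FPKM in DMSO libraries. DMSO replicate 3 lay among the 6PPD libraries and the other controls well above them, with a log2 fold change of -0.27 ± 0.11 (SE) and limma adjusted p = 0.215. Without DMSO replicate 3 it was called lower, at -0.40 with limma adjusted p = 0.0209 (0.0209 to 0.495 over the 18 other settings). The genes of the other Sm core proteins overlapped between the groups: snrpd1 averaged 104 ± 7.32 FPKM in 6PPD and 113 ± 14.9 FPKM in DMSO, and snrpe averaged 83.2 ± 8.48 FPKM in 6PPD and 91.7 ± 10.6 FPKM in DMSO (SD, n = 3 each). The exception in sign was snrpg, with 74.9, 82.9 and 69.8 FPKM in 6PPD libraries and 69.1, 75.0 and 64.8 FPKM in DMSO libraries.

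The PRPF genes are named for yeast splicing factors and act at several stages, among them the tri-snRNP and the catalytic steps. None of the 13 was called by limma (3.41% of all genes tested). At an unadjusted p under 0.05, 1 was higher and 1 lower, beside 20.3% of all genes tested in either direction. The median was -0.01 (0.04 as TPM and -0.09 scaled by median ratios). The gene prpf6, whose product bridges the particles of the tri-snRNP, had 19.8, 18.9 and 21.7 FPKM in 6PPD libraries, against 23.7, 24.9 and 23.0 FPKM in DMSO libraries (log2 fold change -0.24, limma adjusted p = 0.158). The gene prpf18, a factor of the second step of splicing, had 19.7, 19.6 and 18.0 FPKM in 6PPD libraries, against 15.0, 17.8 and 15.6 FPKM in DMSO libraries (0.23, limma adjusted p = 0.194). Both had separate groups, in opposite directions. In the whole family 3 genes were separate with 6PPD higher and 1 with 6PPD lower, beside 17.1% and 9.18% of all genes tested. The others that were higher were prpf38b (log2 fold change 0.15, limma adjusted p = 0.284) and prpf39 (0.12, 0.378). The catalytic core gene prpf8 measured 50.1 ± 3.82 FPKM in 6PPD and 50.4 ± 5.09 FPKM in DMSO, and the ubiquitin ligase gene prpf19, the highest of the family, 70.5 ± 4.89 FPKM in 6PPD and 74.6 ± 4.62 FPKM in DMSO (SD, n = 3 each).

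For the 81 members not called, the data bound the size of a change on the log2(FPKM + 1) scale. That scale understates changes of low genes such as hnrnph3, so the bounds do not hold for its FPKM ratio. The 95% interval of the log2 fold change, taken gene by gene, stayed within 1 of 0 in all 81 and within 0.5 of 0 in 71. The other 10 were clk2a, srsf1b, srsf5b, srsf6b, srsf7b, hnrnph3, hnrnpabb, hnrnpm, sf3a2 and snrpb. The median SE was 0.09 for the members and 0.13 for all genes tested. Summed over all 84, the level was 7878 to 8081 FPKM in 6PPD libraries and 7999 to 8537 FPKM in DMSO libraries, or 1.79% to 1.86% of the summed FPKM in 6PPD and 1.80% to 1.86% in DMSO.

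Many of these genes exist as a pair of duplicates named a and b. The ratio of the members of a pair within a library is unchanged when all values of that library are scaled by a single factor. Quantile normalization, cyclic loess and removal of a gene length trend can change it, and the ratios were not recomputed under these settings. In 16 pairs, listed after the values were seen, the log2 ratio was compared between the groups. It did not overlap in 9, where the exact permutation test gave its smallest possible p for 3 against 3 libraries, 0.10 (two-sided, 0.18 after Benjamini-Hochberg adjustment over the 16 pairs), so no pair could pass a threshold of 0.05. Among the 14 pairs named a and b, 7 did not overlap (50%). Of the 1661 pairs of genes tested whose symbols differ only in a final a or b, 25.2% did not overlap. These shares are not alike in kind. The 1661 pairs were taken by symbol alone. The 14 were picked by hand and leave out prpf38a with prpf38b and snrpa with snrpb. The members also had higher levels (median 69.3 FPKM, against 6.62 FPKM for all genes tested) and smaller SEs (median 0.09, against 0.13). The largest shift was in clk4a over clk4b, with log2 ratios of 2.16, 1.66 and 1.75 in 6PPD libraries, against 1.20, 0.81 and 1.16 in DMSO libraries. The mean difference was 0.80, and 0.65 to 0.90 with 1 library left out.

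In 7 of these 9 pairs the less abundant gene gained on the more abundant one, and the exceptions were clk4a over clk4b and hnrnpa0b over hnrnpa0a. Among the 7 separated pairs named a and b it was 5 (71.4%), beside 57% of the 419 separated pairs so named among all genes tested. The mean difference for hnrnpa0b over hnrnpa0a was only 0.09. The span of hnrnpa0a overlaps BX005228.2 (mean 121 FPKM) by 1911 bases on the same strand, so fragments there may be divided between them. The log2 ratio of srsf2b to srsf2a was -2.88, -2.75 and -2.81 in 6PPD libraries, against -3.06, -3.10 and -3.33 in DMSO libraries. That of srsf1b to srsf1a was -2.81, -2.99 and -2.84 in 6PPD libraries, against -3.11, -3.45 and -3.01 in DMSO libraries. The ratio of hnrnpa1b to hnrnpa1a, genes of the splicing repressor hnRNP A1, was -0.20, -0.32 and -0.21 in 6PPD libraries, against -0.52, -0.58 and -0.51 in DMSO libraries. In these 3 pairs each 6PPD library lay above each DMSO library. The ratio of the more abundant u2af2b to u2af2a was 0.92, 0.89 and 1.12 in 6PPD libraries, against 1.29, 1.33 and 1.26 in DMSO libraries, lower in every 6PPD library. Fragments of near-identical stretches may be divided between the genes of a pair, and how the authors treated them is unknown. The pairs srsf3b with srsf3a (its row with the higher level), hnrnpub with hnrnpua, and prpf4bb with prpf4ba had differences of 0.04, -0.04 and -0.01, with overlapping groups.

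**Figure D4:**
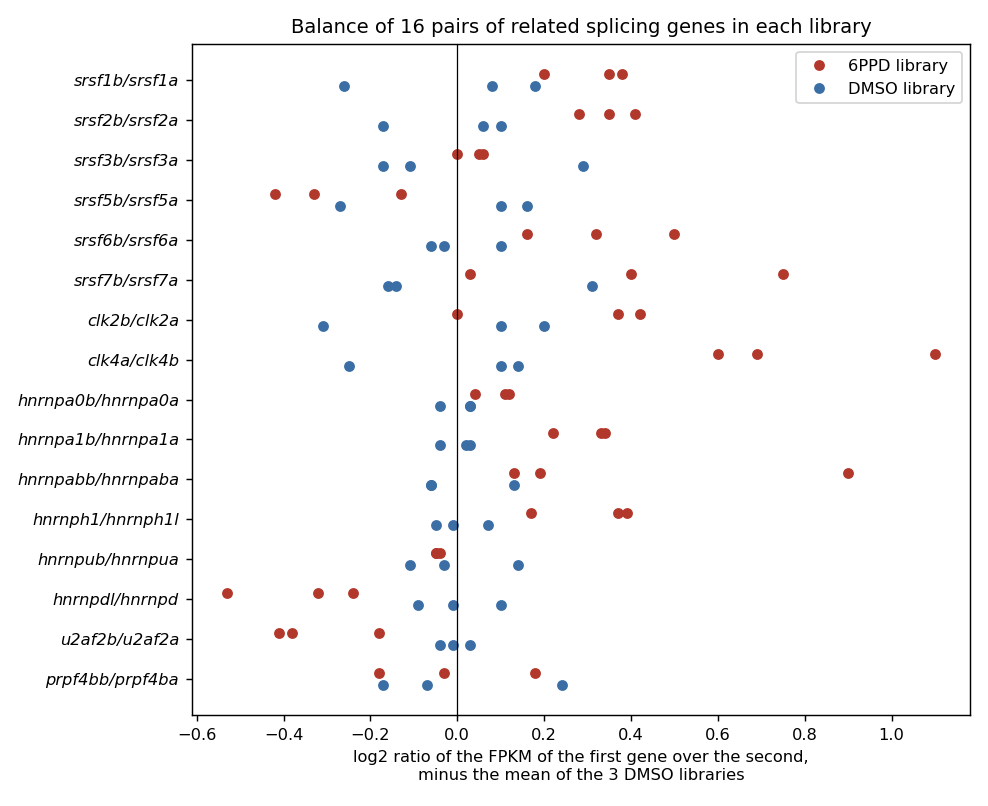
Log2 ratio of the FPKM of related splicing genes in each library, for 16 pairs, minus the mean of the DMSO libraries. The 3 points of 6PPD are separate from the 3 points of DMSO in 9 pairs, most widely in clk4a over clk4b, where the mean difference is 0.80.

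On chromosome 14, clk4a lies next to 2 other members, with hnrnpaba 18336 bases away and hnrnph1 a further 22552 bases on. Neither neighbour was called. The gene hnrnpaba had 331, 334 and 356 FPKM in 6PPD libraries, against 367, 405 and 368 FPKM in DMSO libraries (log2 fold change -0.16, limma adjusted p = 0.339), and hnrnph1 had 12.8, 11 and 13.5 FPKM in 6PPD libraries, against 10.9, 10.6 and 10.6 FPKM in DMSO libraries (0.19, limma adjusted p = 0.297).

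Genes outside the rule, in 7 lists of splicing and related RNA-processing genes (the other splicing lists), were called no more often. Not all of them act in splicing, as 1 list includes nonsense-mediated decay genes. Of 179 distinct genes tested, 3 rose and 2 fell, which is 2.79% beside 3.41% of all genes tested. Of 52 other core spliceosome genes smu1b rose and none fell by limma, and 12 (23.1%) had an unadjusted p under 0.05, beside 20.3% of all genes tested. The list leaned lower: 11 genes (21.2%) had a positive log2 fold change, beside 61.5% of all genes tested, with a median of -0.09. The groups were separate with 6PPD lower in 16 genes (30.8%, beside 9.18%) and higher in 5 (9.62%, beside 17.1%). The shares over all genes tested were not matched to this list for level. The gene smu1b, for a protein of the spliceosome, had 8.63, 9.69 and 8.32 FPKM in 6PPD libraries, against 4.75, 3.84 and 4.46 FPKM in DMSO libraries (log2 fold change 0.89 ± 0.11, SE; limma adjusted p = 0.00537). It was called in every fit that left out 1 library, and its far more abundant duplicate smu1a measured 44.0 ± 3.99 FPKM in 6PPD and 46.0 ± 4.30 FPKM in DMSO (SD, n = 3 each).

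No gene was called by limma among 29 SR-related proteins and SR kinases, 12 LSm proteins, 11 minor spliceosome proteins, 13 snRNP assembly factors, and 17 genes of the exon junction complex and nonsense-mediated decay. At an unadjusted p under 0.05 there were 6, 1, 1, 1 and 0 genes in these lists (20.7%, 8.33%, 9.09%, 7.69% and 0%, beside 20.3% of all genes tested). Their medians were 0.09, -0.05, 0.01, -0.16 and -0.01. A positive log2 fold change was found in 72.4%, 41.7%, 54.5%, 15.4% and 47.1% of their genes, beside 61.5% of all genes tested. The groups were separate with 6PPD higher in 24.1%, 0%, 9.09%, 0% and 5.88% (17.1% of all genes tested). They were separate with 6PPD lower in 6.9%, 16.7%, 18.2%, 30.8% and 0% (9.18% of all genes tested). These shares were not matched for level. The gene with the smallest p of the SR-related list was tra2a, the homolog of the fly sex-determination splicing factor Transformer-2, at 79.0 ± 4.19 FPKM in 6PPD and 64.2 ± 5.12 FPKM in DMSO (SD, n = 3 each; log2 fold change 0.30, limma adjusted p = 0.0932, and 0.0456 as TPM). For the minor spliceosome it was rnpc3, at 2.79 ± 0.849 FPKM in 6PPD and 6.83 ± 2.71 FPKM in DMSO (limma adjusted p = 0.0754). This gene was called without DMSO replicate 3 (-1.32, limma adjusted p = 0.0138, and 0.0138 to 0.227 over its other settings). For snRNP assembly it was the importin adaptor gene snupn (-0.32, limma adjusted p = 0.112), for the LSm list lsm12a (-0.33, 0.114), and for the exon junction list the helicase gene eif4a3 (-0.15, 0.336).

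Markers of several cell types and of cell state differed between the groups. Of 19 rows of cycling-cell markers 9 rose and none fell by limma, 12 had an unadjusted p under 0.05, and their summed level was 1602 to 1800 FPKM in 6PPD libraries, against 1082 to 1462 FPKM in DMSO libraries. None of them was at 0. The neural progenitor markers summed to 1218 to 1299 FPKM in 6PPD libraries, against 1457 to 1648 FPKM in DMSO libraries, and none of 8 was called by limma, with 4 at an unadjusted p under 0.05. Most of that sum is fabp7a, at 955, 968 and 893 FPKM in 6PPD libraries and 1126, 1314 and 1113 FPKM in DMSO libraries, and 1 of the 4, her4.1, was higher in 6PPD (log2 fold change 0.35). Of 9 retina markers the photoreceptor pigment genes rho (-1.01, limma adjusted p = 0.00354) and opn1sw1 (-1.98, 0.0239) fell, and of 10 epidermis markers cldne fell (-0.46, 0.047) and none had a positive log2 fold change. Of 4 macrophage and neutrophil markers tested, the neutrophil marker lyz fell (-0.82, limma adjusted p = 0.0468). In that list 1 marker had a positive log2 fold change. Of 11 neuron markers elavl3 (0.64, limma adjusted p = 0.0324) and snap25a (0.40, 0.0328) rose. The neuron list had a median of 0.06, with 6 of the 11 positive. The relatives elavl4 (-0.34) and snap25b (-0.23) had negative log2 fold changes and were not called. The part of these shifts in the levels of the splicing genes was not tested. The values are per gene, so a rise in a productive transcript and a rise in a form that retains an intron cannot be told apart.

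**Figure D5:**
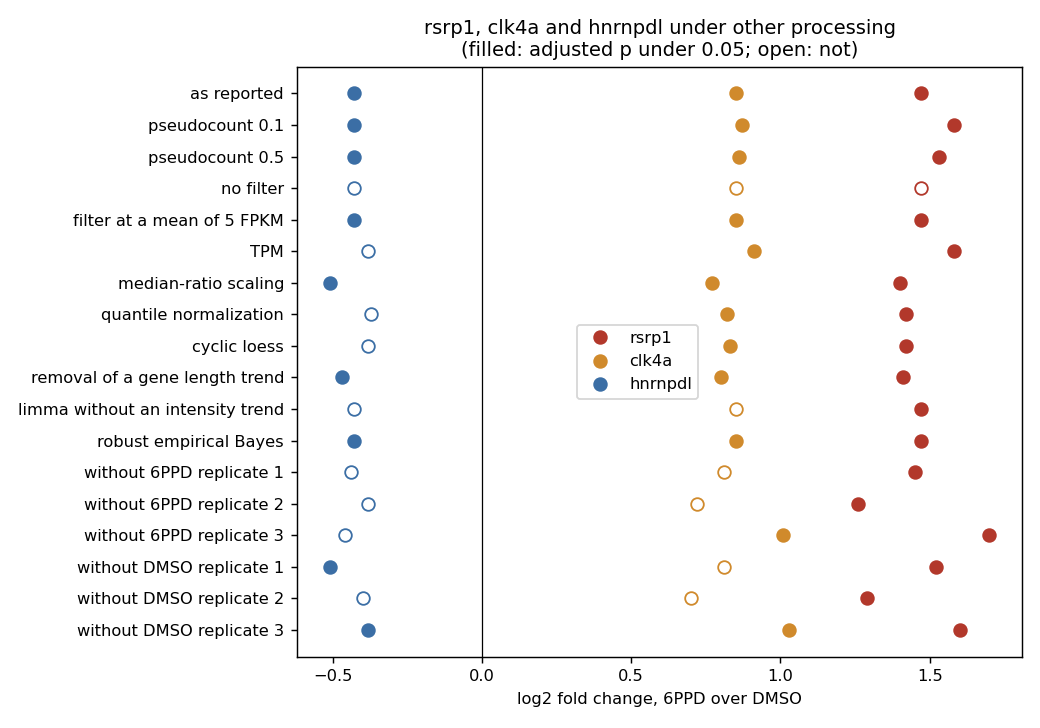
Log2 fold change of rsrp1, clk4a and hnrnpdl as reported and under 17 of the 18 other settings (rows, all but the replicate block), filled where the adjusted p is under 0.05. The sign is the same in every setting shown, rsrp1 (1.26 to 1.70) is open only with no filter on low values, and clk4a and hnrnpdl are open in several.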

How the data were processed

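The authors deposited 1 table of FPKM values per gene and library, with gene symbols, positions and lengths, which are printed as that table gives them. Tools named in the submitters' processing notes are StringTie, featureCounts, HISAT2 and fastp, with the build GRCz11 and no versions or roles. Samples were grouped and numbered by their titles. The 15320 genes that averaged 1 FPKM or more entered a limma fit (version 3.58.1, R 4.3.3) of log2(FPKM + 1), with moderated variances that follow the mean level, 6PPD against DMSO, with Benjamini-Hochberg adjustment over all genes tested and a threshold of 0.05. Fold changes on this scale understate changes of low genes. Intervals are 95% intervals from the moderated SE. Read depth is not given, so no count model or counting interval was used. P-values set the difference between the groups against the spread between pools of heads within a group, moderated over all genes tested.

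The members and the lists were chosen with earlier results of these data known. The genes named are all called members, rsrp1, the clk genes, and in each family those with the smallest p, the highest level and the extreme fold changes, with the called genes of each other list or else its gene of smallest p. Other members named were chosen after their values were seen. Of 84 members, 17 overlap another gene's span. No sequences are shown.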

Additional observations from a re-analysis of the deposited data

How the results depend on the processing

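In total 18 other settings were run: pseudocounts of 0.1 and 0.5, a filter at 5 FPKM or none, conversion to TPM, quantile normalization, cyclic loess, median-ratio scaling, removal of a gene length trend, limma without an intensity trend or with robust empirical Bayes, a replicate block, and each library left out. The gene rsrp1 kept its call in 17 of them and lost it with no filter (limma adjusted p = 0.0916). With no filter, 26 of the 26983 genes tested were called (0.0964%, against 3.41% in the main fit), and no member was. The number of members called higher was 2, and 0 with no filter, 1 without an intensity trend, and 1 to 2 with a library left out. The number called lower was 1, and 0 with no filter, with TPM, with quantile normalization, with cyclic loess and without an intensity trend, and 0 to 3 with a library left out (2 without DMSO replicate 1, 3 without DMSO replicate 3). In the other splicing lists 3 genes were called higher, and 0 with no filter and 1 to 10 with a library left out, and 2 were called lower, with 0 under no filter, 1 under TPM, quantile normalization, cyclic loess and no intensity trend, and 1 to 5 with a library left out, both counts being highest without DMSO replicate 3. Of those genes, smu1b and fus lost the call only with no filter, elavl3 in 6, ewsr1b in 9 and raver1 in 11 of the 18 settings. Members whose groups did not overlap numbered 17 to 22 over 9 settings. The share over all genes tested is given here for the main fit only (26.3%), so this range cannot be set against a background.

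Family medians moved with the scaling. For TPM, median-ratio scaling and removal of the length trend they were 0.11, -0.02 and 0.02 in SR proteins, 0.04, -0.09 and -0.07 in hnRNPs, -0.04, -0.17 and -0.13 in SF3B and 0.04, -0.09 and -0.06 in PRPF proteins. That of hnRNPs was 0.03 after quantile normalization, and that of SF3A -0.27 after median-ratio scaling and after removal of the length trend. With a library left out they ranged from -0.03 to 0.09 in SR proteins, -0.05 to 0.02 in hnRNPs, -0.21 to -0.09 in SF3A, -0.10 to -0.05 in SF3B and -0.05 to 0.03 in PRPF proteins. The median of all genes tested was 0.06, 0.12 with TPM and -0.01 after median-ratio scaling. Some named genes that were not called changed sign: clk2a with 1 library left out (-0.24 to 0.09), clk4b after median-ratio scaling (-0.01), removal of the length trend (-0.01) and with 1 library left out (-0.15 to 0.19), sf3a1 with TPM (0.00), sf3b1 with TPM (0.02) and with 1 library left out (-0.11 to 0.08), and sf3b4 after median-ratio scaling (-0.05), removal of the length trend (-0.01) and without DMSO replicate 3 (-0.01). The cause was not tested. The pair ratios were also recomputed with a pseudocount of 1 and with each library left out, chosen after seeing the data, and for clk4a over clk4b the difference was 0.78 and 0.65 to 0.90.

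The titles give both groups the numbers 1 to 3. The deviations of same-numbered libraries from their group means correlated at 0.03, 0.181 and -0.026, and those of differently numbered libraries at -0.177 to 0.166. The value of 0.181, for the libraries numbered 2, was the highest. With 3 libraries in each group such correlations cannot decide whether the numbers pair the libraries, and the fit was left unpaired. With a replicate block, 281 genes were called higher and 174 lower over all genes, against 346 and 176 without it, and 1 member was called higher (rsrp1) and 0 lower, with adjusted p = 0.0707 for clk4a and 0.0583 for hnrnpdl. Read totals were not given, so the counting error behind low values such as those of hnrnph3, which has no value under the filter at 5 FPKM, is unknown.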

Other observations

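Of 48 tissue splicing regulators tested, 2 rose and 2 fell by limma, where 2.26% of all genes tested rose and 1.15% fell. The median log2 fold change of the list was 0.05. Both genes that fell belong to the FET family of RNA-binding proteins. The gene fus, whose human homolog is mutated in a form of motor neuron disease, had 45.4, 50.5 and 50.0 FPKM in 6PPD libraries, against 70.0, 87.9 and 90.9 FPKM in DMSO libraries (log2 fold change -0.75 ± 0.11, SE; limma adjusted p = 0.00771). It was called in each fit that left out 1 library. The gene ewsr1b (ENSDARG00000020465) had 117, 124 and 129 FPKM in 6PPD libraries, against 153, 160 and 169 FPKM in DMSO libraries (-0.38, limma adjusted p = 0.0329), and lost the call in 9 of 18 other settings. Its duplicate ewsr1a had 133, 140 and 145 FPKM in 6PPD libraries, against 151, 189 and 194 FPKM in DMSO libraries (-0.35, limma adjusted p = 0.108), and taf15 had 134, 134 and 146 FPKM in 6PPD libraries and 144, 153 and 136 FPKM in DMSO libraries, with overlapping groups. A second row of the symbol ewsr1b (ENSDARG00000117011), under the level required for testing, had 1.1, 0.759 and 1.5 FPKM in 6PPD libraries, against 0.435, 0.559 and 0.34 FPKM in DMSO libraries, in the opposite direction. The FET genes were grouped after their values were seen.

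The genes that rose were elavl3, a neuronal RNA-binding protein gene that also serves as a marker of neurons, and raver1, which encodes a partner of the polypyrimidine tract binding protein. The gene elavl3 had 51.9, 43.4 and 39.7 FPKM in 6PPD libraries, against 30.9, 23.5 and 31.5 FPKM in DMSO libraries (0.64, limma adjusted p = 0.0324), while its relative elavl4 averaged 38.1 ± 1.39 FPKM in 6PPD and 50.6 ± 16.5 FPKM in DMSO (SD, n = 3 each; -0.34, limma adjusted p = 0.37). The gene raver1 had 6.98, 7.77 and 7.05 FPKM in 6PPD libraries, against 4.66, 5.28 and 4.63 FPKM in DMSO libraries (0.50, limma adjusted p = 0.0382). The polypyrimidine tract binding protein genes themselves were not called, with ptbp1a at 21.9 ± 2.25 FPKM in 6PPD and 22.4 ± 1.97 FPKM in DMSO, and ptbp2a at 14.0 ± 1.87 FPKM in 6PPD and 13.0 ± 1.15 FPKM in DMSO (SD, n = 3 each).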
